A study of Mus musculus with 8 samples.

Results

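The genes described are the adult globins of the mouse and a small set of other red cell genes, chosen by symbol: Hba-a1, Hba-a2, Hbb-bs, Hbb-bt, Alas2, Slc4a1, Ank1, Ahsp and Bpgm. Of these 9 genes, 8 were matched to rows of a table that lists 31300 mouse and 20716 canine genes, and Ahsp was not analysed here. RNA was sequenced from exosomes, the small membrane vesicles that cells release, enriched from pooled serum of immunodeficient NCr nu/nu mice. The 8 libraries form 4 groups of 2. The OSCA-40 and OSCA-32 groups are serum taken at week 8 from mice that had received 100000 cells of the canine osteosarcoma line of that name in 10 µl into the tibia. The PBS group is serum taken at week 8 from mice injected into the tibia with 10 µl of phosphate-buffered saline. The week 0 group is serum pooled from all mice before any injection. All groups share the nu/nu background, in which the thymus and mature T cells are lacking, and each tumour line was given as a graft of canine cells in a mouse host. Whether the paired libraries of a group stem from different mice is not stated, and the p-values below reflect no more than the scatter of the libraries, which may be technical.

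Haemoglobin, the oxygen carrier of red cells, is built from alpha-globin and beta-globin chains, each holding a haem group. Mature mammalian red cells have no nucleus, and their youngest form in blood, the reticulocyte, still carries RNA in which globin mRNA dominates. Reticulocytes shed vesicles as they mature, and red cells that burst during blood sampling also release their content into serum. Hba-a1 and Hba-a2 encode alpha-globin, and Hbb-bs and Hbb-bt encode beta-globin in the haplotype of the reference mouse strain. Other laboratory strains carry a different pair of adult beta-globin genes, and the labels do not give the haplotype of the NCr nu/nu mice. Alas2 encodes the enzyme of the first step of haem synthesis in red cell precursors, and Ahsp a chaperone of free alpha-globin. Slc4a1 encodes band 3, the anion exchanger of the red cell membrane. Ank1 encodes the ankyrin that ties band 3 to the spectrin skeleton, and Bpgm the enzyme that makes bisphosphoglycerate, which lowers the oxygen affinity of haemoglobin.

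The copies of each globin are nearly the same in sequence, which decides how far their values can be told apart. On GRCm38, Hba-a1 (ENSMUSG00000069919) lies on chromosome 11 from 32283511 to 32284465 and Hba-a2 (ENSMUSG00000069917) from 32296489 to 32297298, both on the plus strand. Hbb-bs (ENSMUSG00000052305) lies on chromosome 7 from 103826534 to 103828096 and Hbb-bt (ENSMUSG00000073940) from 103812524 to 103813996, both on the minus strand. The coding sequences of the alpha-globin copies, 429 bases each in GENCODE release M21, differed at 1 base, and those of the beta-globin copies, 444 bases each, also at 1 base. Counted from 1 at the A of the start codon, the difference of Hba-a2 from Hba-a1 is T381C, and that of Hbb-bs from Hbb-bt is C417T. The stretches around these positions are shown because they hold the only bases in the coding parts by which a read can be assigned to a copy, with the differing base in capitals.

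Hba-a2, coding bases 351 to 411: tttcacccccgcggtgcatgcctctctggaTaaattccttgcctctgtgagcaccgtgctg

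Hba-a1, coding bases 351 to 411: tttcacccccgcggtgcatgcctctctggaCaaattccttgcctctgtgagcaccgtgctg

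Hbb-bs, coding bases 387 to 444: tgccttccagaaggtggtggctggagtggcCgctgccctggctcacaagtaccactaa

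Hbb-bt, coding bases 387 to 444: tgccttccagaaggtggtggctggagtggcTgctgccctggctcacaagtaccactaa

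Over whole annotated transcripts, 92.6% of the 31-base words of Hba-a2 and 75.4% of those of Hba-a1 also occurred in the other copy. The shares were 54.4% for Hbb-bs and 59.4% for Hbb-bt. The values of single copies are therefore uncertain, and the copies were also summed, as summed alpha-globin (Hba-a1 with Hba-a2) and summed beta-globin (Hbb-bs with Hbb-bt). The search covered mouse transcripts of GENCODE release M21 only, and canine transcripts were not searched. No word of Slc4a1 or Bpgm occurred in another mouse gene. Of the words of Alas2, 13.1% occurred in reverse complement in other genes, mainly Apex2, and of those of Ank1 5.46% occurred elsewhere, mainly in reverse complement. The library kit keeps strand, but whether the counting used it is not given in the sources used here. Between the families, the coding sequences of Hba-a2 and Hbb-bs had 58.4% identity over an alignment of 459 columns.

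The start regions of the globin genes are shown because the gene pairs are known to be switched on together in red cell precursors. In the RefSeq windows on GRCm38.p6, the 250 bases before the starts of Hba-a1 and Hba-a2 shared an unbroken run of 247 bases. Capitals mark matches, on either strand, to the 4 motifs named after the sequences, which did not overlap each other. The stretches end before the first annotated exon.

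Hba-a2, chr11:32296242-32296488, plus strand: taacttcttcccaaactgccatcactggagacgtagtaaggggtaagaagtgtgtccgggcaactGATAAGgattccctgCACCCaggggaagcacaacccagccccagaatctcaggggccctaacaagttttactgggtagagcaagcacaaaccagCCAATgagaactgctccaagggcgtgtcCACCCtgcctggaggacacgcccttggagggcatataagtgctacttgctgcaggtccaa

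Hbb-bt, chr7:103813997-103814173, minus strand: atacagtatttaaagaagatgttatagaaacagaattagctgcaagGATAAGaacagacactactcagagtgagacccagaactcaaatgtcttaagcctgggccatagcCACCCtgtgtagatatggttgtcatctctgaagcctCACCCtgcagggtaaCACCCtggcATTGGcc

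GATAAG is a form of the motif that the erythroid factor Gata1 binds, and CACCC resembles the core of the sites of Klf1, which is known to act on the beta-globin gene. GATAAG stood once in the window of each of the 4 globin genes, and 6.55% of 32851 promoter windows of 250 bases hold it. CCAAT was in all 4 as well and is held by 33.8% of windows, and CACCC was in all 4 and is held by 52% of windows. TATAAA was in the window of Hbb-bt only among the globins and is held by 12.4% of windows. A match of letters is a description of the window and not a site.

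The values in the table are relative amounts: each library sums to between 977106 and 989183, as transcript shares over both species together would. Whether they are corrected for transcript length is not stated and was not tested, so levels set between genes, ranks and the ratio of alpha-globin to beta-globin assume that they are. The sequencing depth behind them is unknown. Canine genes held 68.4% and 70.7% of the OSCA-40 libraries and 44.7% and 43.3% of the OSCA-32 libraries, against 14.7% and 15.2% of the PBS libraries and 16.1% and 17.4% of the week 0 libraries. As deposited, the median log2 difference of the tested mouse genes was -1.53 in OSCA-40 and -0.56 in OSCA-32 relative to PBS, and 0.05 in PBS relative to week 0. The globin results are therefore given both as deposited and after scaling on the bulk of the genes (a trimmed mean of log ratios). Some genes of the wider lists are given on only 1 of these scales. Fold changes are on the log2(scaled value + 1) scale. That scale understates the change of low genes. Tests used limma across the 7872 genes that reached 10 in 2 or more libraries, and a change was called at a Benjamini-Hochberg adjusted p of at most 0.05. Of the 9 genes, 6 passed this filter. Alas2 and Bpgm did not, with highest values of 6 each.

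Alpha-globin was the most abundant of the red cell transcripts in every group. Hba-a2 was listed at 194 and 196 with OSCA-40, at 157 and 173 with OSCA-32, at 184 and 189 with PBS and at 299 and 313 at week 0. As deposited, the week 0 libraries were the highest, and those of OSCA-40 lay just above those of PBS. Hba-a2 ranked between 106 and 110 among all mouse genes in the OSCA-40 libraries and between 223 and 233 in the OSCA-32 libraries. Its rank was 287 and 289 with PBS, and 183 and 180 at week 0.

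Hba-a1 was listed at 12 and 20 with OSCA-40, at 18 and 11 with OSCA-32, at 15 and 29 with PBS and at 24 and 33 at week 0. The OSCA-40, OSCA-32 and PBS ranges overlapped, and only PBS reached into the week 0 range. Hba-a2 made up between 86.7% and 94.2% of the alpha-globin pair in the 8 libraries.

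Summed beta-globin was lower than summed alpha-globin in every library, although Hbb-bs was above Hba-a1 in each of them. Hbb-bs was listed at 27 and 23 with OSCA-40, at 44 and 50 with OSCA-32, at 62 and 49 with PBS and at 56 and 70 at week 0. As deposited, both OSCA-40 libraries were below all 6 others. Hbb-bt was listed at 9 and 18 with OSCA-40, at 10 and 17 with OSCA-32, at 11 and 22 with PBS and at 25 and 38 at week 0, where only the week 0 libraries stood clear of the rest. Hbb-bs made up between 56.1% and 84.9% of the beta-globin pair.

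**Figure D1:**
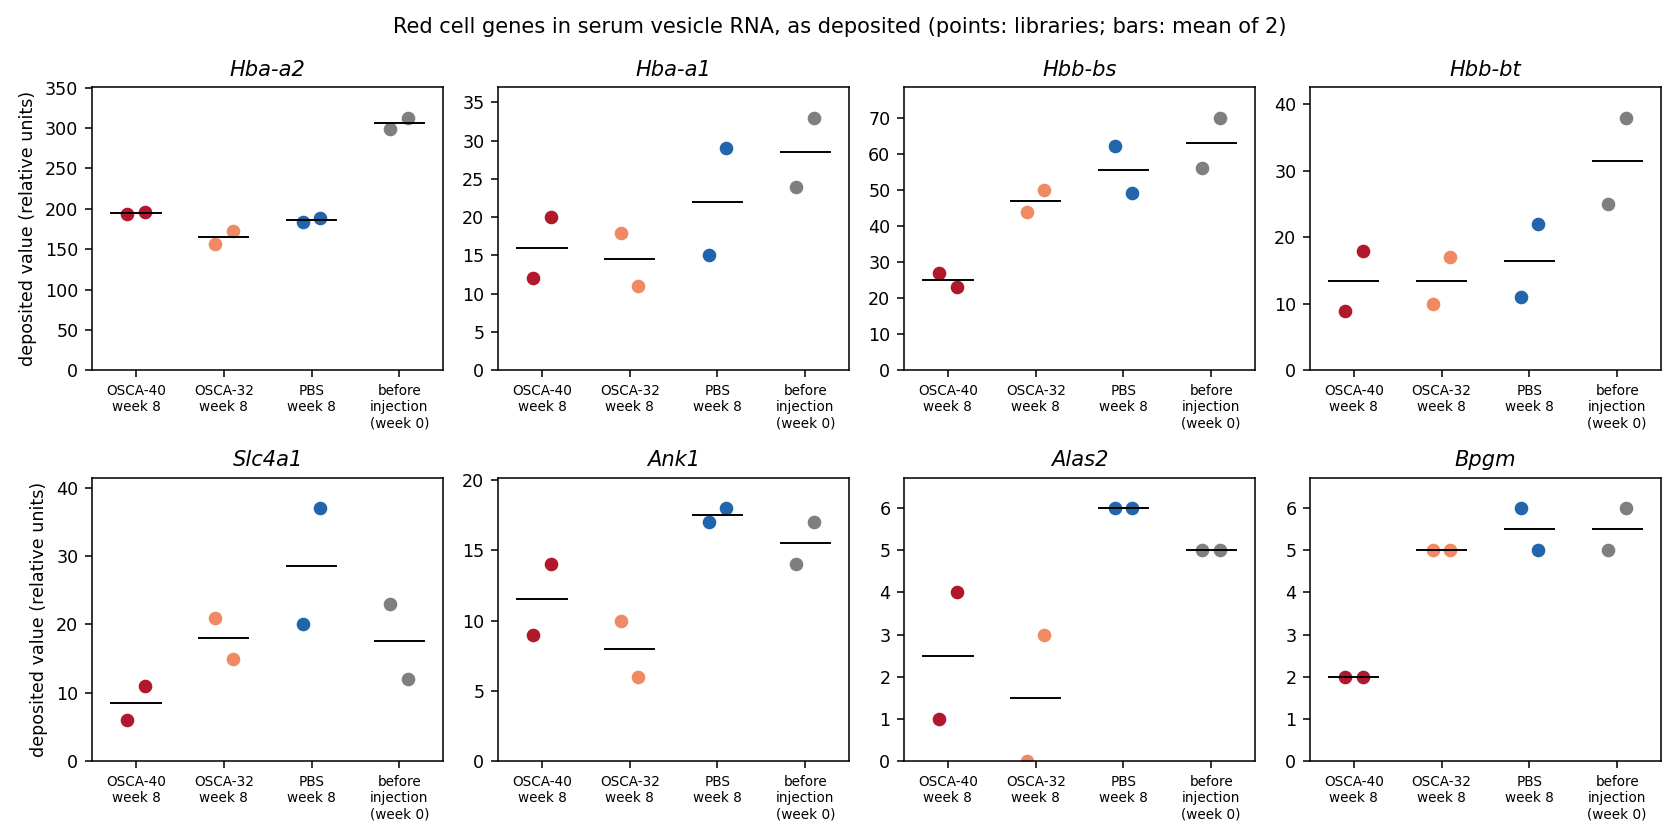
Deposited values (relative units, y axis from 0) of the 8 red cell genes found, by group on the x axis, with a point for each library and a bar for the mean of 2. Hba-a2 stands at 299 and 313 at week 0 and between 157 and 196 in the week 8 groups, while Alas2 and Bpgm never exceed 6.

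The first comparison, OSCA-40 against PBS, concerned how red cell transcripts stood in serum vesicles of mice carrying that line, relative to mice without a graft. Scaled on the bulk of genes, alpha-globin was about 3 times as high, and beta-globin was less raised. Scaled Hba-a2 averaged 584 ± 22.5 with OSCA-40 and 178 ± 1.74 with PBS (SD, n = 2 each), and it rose by a log2 fold change of 1.71 ± 0.07 (SE), with an adjusted p of 1.8e-05 in limma. After scaling, the OSCA-40 values of 568 and 600 lay clear of the PBS values of 177 and 179. With library totals alone the log2 difference of Hba-a2 was 0.05 ± 0.08 (adjusted p = 0.569, limma), so the rise rests on the scaling. Hba-a2 was the 1 called gene of the 6 tested, where 6.85% of the 7872 genes tested were called, 4.43% higher and 2.41% lower. Among mouse genes alone, 2.94% of 7655 were called higher.

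Summed alpha-globin was 206 and 216 as deposited with OSCA-40, against 199 and 218 with PBS. After scaling the sums were 604 and 661 with OSCA-40 and 191 and 207 with PBS, and the groups did not overlap. The log2 fold change of the sum was 1.66 ± 0.08 (adjusted p = 3.65e-05, limma), in a fit where 6.87% of 7870 genes were called. With library totals alone it was 0.00 ± 0.08 (adjusted p = 0.989, limma).

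Summed beta-globin was 36 and 41 as deposited with OSCA-40, against 73 and 71 with PBS, and after scaling 105 and 126 with OSCA-40, against 70.2 and 67.4 with PBS. It rose by 0.73 ± 0.17 (adjusted p = 0.0464, limma), and turned to -0.91 ± 0.17 (adjusted p = 0.0023, limma) with library totals alone. The call was lost without either PBS library (adjusted p = 0.184 and 0.229), without either OSCA-32 library (0.0597 and 0.0592) and without either OSCA-40 library (0.0612 and 0.140), with log2 fold changes of 0.61 to 0.86 in limma. It was also lost with each library set to the same mouse total, at 0.55 ± 0.18 (adjusted p = 0.128, limma).

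Of the single copies, Hba-a1 had a log2 fold change of 1.18 ± 0.41, Hbb-bs of 0.50 ± 0.17 and Hbb-bt of 1.30 ± 0.46, and none of them passed (adjusted p = 0.162, 0.149 and 0.170, limma). With libraries blocked by replicate number, Hbb-bt passed at 1.30 ± 0.20 (adjusted p = 0.0151, limma), although the labels do not say that the numbers pair libraries. All 3 had the opposite sign with library totals alone, and Hbb-bs was then called lower, at -1.13 ± 0.17 (adjusted p = 0.0010, limma). The scaled rise of alpha-globin is relative to the bulk of genes, and whether globin RNA or the other RNA changed was not tested. In bulk serum, more vesicles from red cells, more globin RNA in each vesicle and red cells burst at sampling cannot be told apart either.

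**Figure D2:**
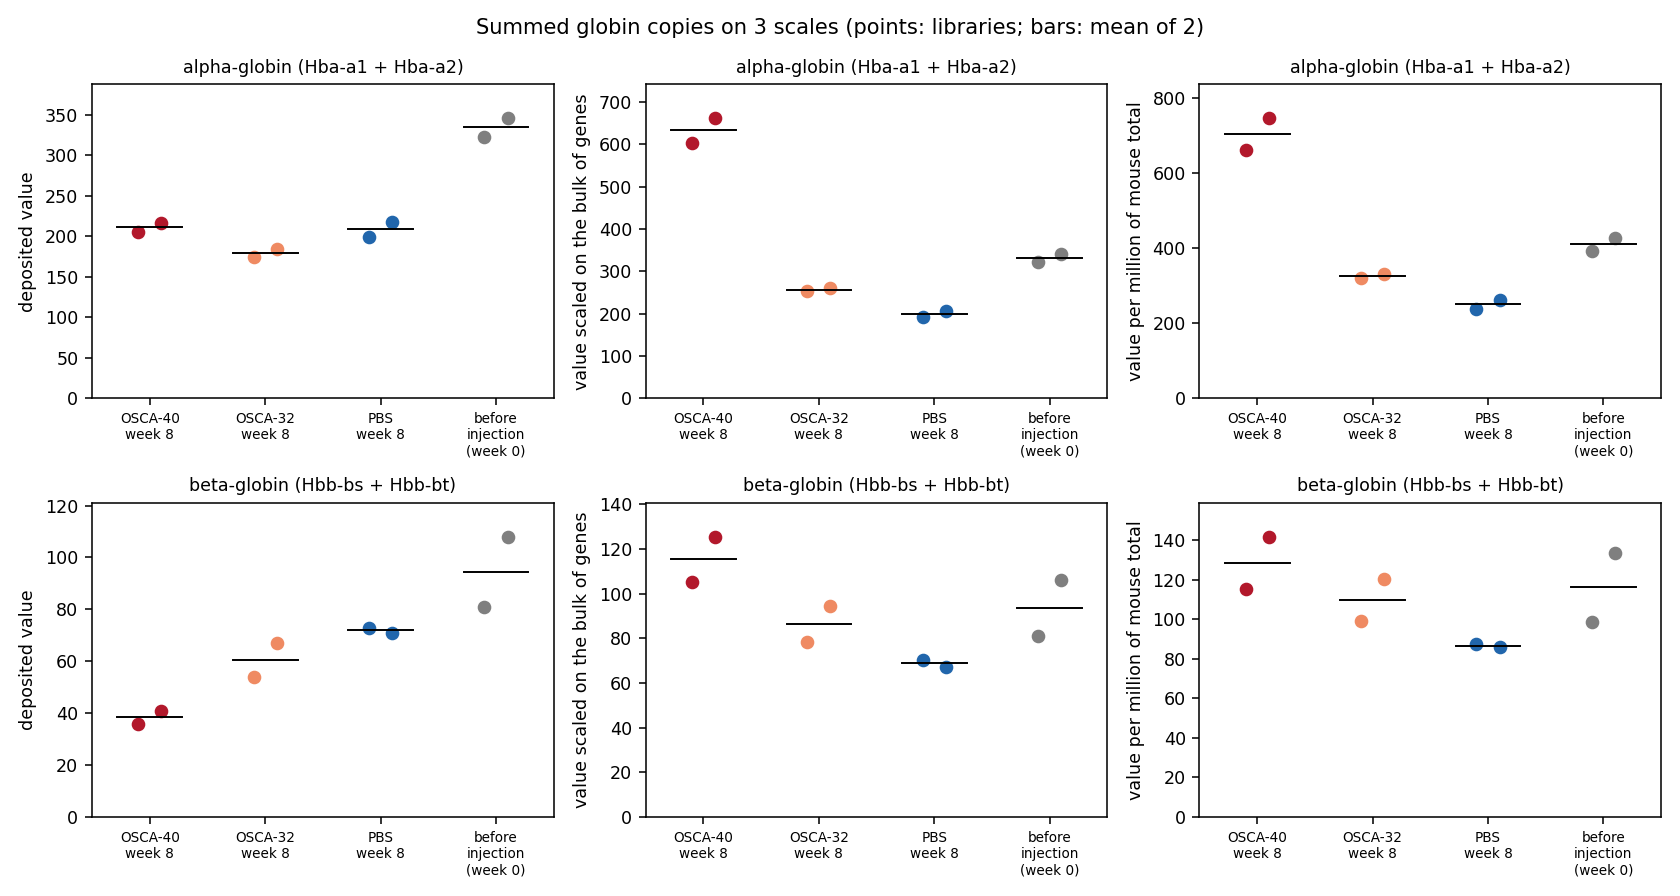
Summed alpha-globin (top) and summed beta-globin (bottom) by group, as deposited, scaled on the bulk of genes, and relative to the mouse total of the library, all axes from 0, with a point for each library and a bar for the mean of 2. OSCA-40 alpha-globin lies beside PBS as deposited (206 and 216, against 199 and 218) and above all other libraries on both other scales, while OSCA-40 beta-globin is lowest as deposited.

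For OSCA-32 the question was the same. None of the 6 tested genes passed in limma, while 1.08% of the 7872 genes tested were called, 0.889% higher and 0.191% lower, and Hba-a2 alone had an unadjusted p under 0.05. Hba-a2 had a log2 fold change of 0.40 ± 0.07 (adjusted p = 0.0576, limma), with scaled values of 227 and 244 with OSCA-32 and 177 and 179 with PBS. It was -0.19 ± 0.08 with library totals alone (adjusted p = 0.118, limma). When the test was limited to genes averaging 50 or more it passed, at 0.33 ± 0.07 (adjusted p = 0.0231, limma). Summed alpha-globin was 175 and 184 as deposited with OSCA-32, against 199 and 218 with PBS, and its scaled log2 fold change was 0.36 ± 0.08 (adjusted p = 0.118, limma). Summed beta-globin was 54 and 67 as deposited with OSCA-32, against 73 and 71 with PBS, and its scaled log2 fold change was 0.32 ± 0.17 (adjusted p = 0.591, limma). Averaged over both lines against PBS, Hba-a2 rose by 1.05 ± 0.06 (adjusted p = 0.000146, limma), where 4.45% of the genes tested were called, 3.37% higher and 1.08% lower (2.08% of mouse genes higher), and it was -0.07 ± 0.07 with library totals alone. Summed alpha-globin rose by 1.01 ± 0.07 (adjusted p = 0.000289, limma), in the fit with 4.46% called, and was -0.11 ± 0.07 with library totals alone. No other gene of the set passed in that comparison.

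The difference between the lines was tested directly. Hba-a2 was higher with OSCA-40 than with OSCA-32, by 1.31 ± 0.07 on the scaled log2 scale (adjusted p = 0.000585, limma), where 2.62% of the genes tested were called, 1.65% higher and 0.965% lower (0.81% of mouse genes higher). As deposited it stood at 194 and 196 with OSCA-40, against 157 and 173 with OSCA-32, and with library totals alone it still passed, at 0.23 ± 0.08 (adjusted p = 0.0351, limma). Summed alpha-globin differed by 1.30 ± 0.08 (adjusted p = 0.000584, limma) and, with library totals alone, by 0.22 ± 0.08 (adjusted p = 0.0468, limma). Summed beta-globin had a scaled log2 fold change of 0.42 ± 0.17 that did not pass (adjusted p = 0.281, limma), and with library totals alone it was lower with OSCA-40, at -0.64 ± 0.17 (adjusted p = 0.0168, limma).

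The comparison of PBS at week 8 with week 0 involved no graft, and the libraries differed little in canine share. Hba-a2 was lower in PBS, at 184 and 189 as deposited, against 299 and 313 at week 0. It fell by 0.76 on the log2 scale (SE 0.07, adjusted p = 0.0182, limma), with scaled means of 178 ± 1.74 in PBS and 303 ± 6.14 at week 0 (SD, n = 2 each). Hba-a2 was the 1 called gene of the 6 tested, where 0.114% of the 7872 genes tested were called lower and 0.0762% higher in this comparison, 0.191% in all, and 0.0784% of mouse genes were called lower. With library totals alone Hba-a2 was lower by a similar amount, at -0.71 ± 0.08 (adjusted p = 0.0278, limma).

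Summed alpha-globin was 199 and 218 as deposited in PBS, against 323 and 346 at week 0, and fell by 0.73 on the log2 scale (SE 0.08, adjusted p = 0.0290, limma). The call of Hba-a2 depends on the libraries that enter the fit. Its adjusted p in limma was 0.184 and 0.209 without the first and second PBS library, 0.197 and 0.25 without the first and second week 0 library, and 0.0564 and 0.0561 without the first and second OSCA-32 library, with log2 fold changes of -0.78 to -0.74. For summed alpha-globin the same 6 omissions ended the call, with log2 fold changes of -0.78 to -0.67 over all 8. Summed beta-globin was 73 and 71 in PBS, against 81 and 108 at week 0, and its log2 fold change of -0.43 ± 0.17 did not pass (adjusted p = 0.993, limma). Hbb-bt, at -0.99 ± 0.46, and Hba-a1, at -0.46 ± 0.41, did not pass either.

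**Figure D3:**
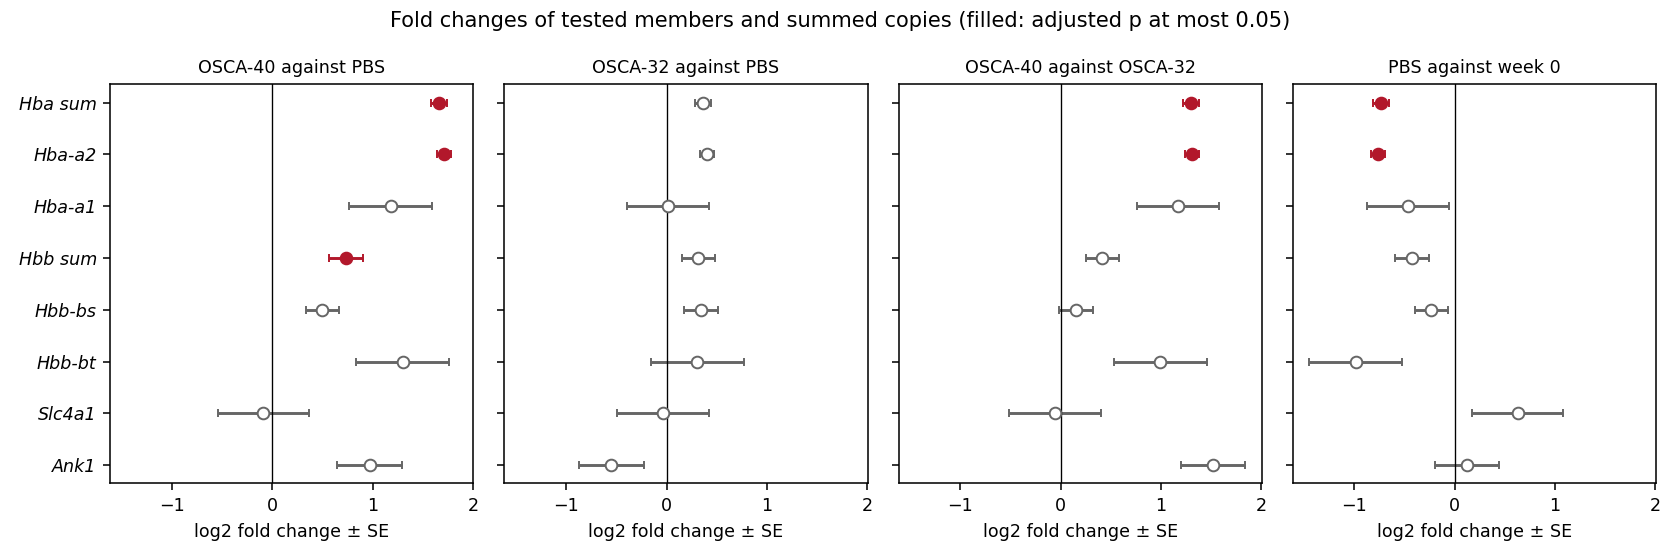
Log2 fold changes with standard errors on the x axis for the 6 tested genes and both sums, in 4 comparisons, where filled red points have an adjusted p of at most 0.05 in limma. Hba-a2 and summed alpha-globin pass in 3 of the 4 panels, at 1.71 and 1.66 in OSCA-40 against PBS, and Slc4a1 has its standard error across 0 in all but the last panel. The values are scaled on the bulk of genes, and with library totals alone those of Hba-a1, Hbb-bs, Hbb-bt, Ank1 and summed beta-globin in OSCA-40 against PBS have the opposite sign, as do those of the globins in OSCA-32 against PBS and of Hbb-bs, Hbb-bt and summed beta-globin in OSCA-40 against OSCA-32.

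The order of the groups was the same for both globins after scaling, with OSCA-40 first, week 0 next, then OSCA-32 and PBS last. Summed alpha-globin averaged 633 ± 41.0 with OSCA-40, 332 ± 12.1 at week 0, 257 ± 4.18 with OSCA-32 and 199 ± 11.0 with PBS (SD, n = 2 each). No neighbours in this order overlapped. In limma the first step was called, with OSCA-40 above week 0 by a log2 difference of 0.93 ± 0.08 (adjusted p = 0.00073). The next steps were not, with OSCA-32 at -0.37 ± 0.08 relative to week 0 (adjusted p = 0.131) and at 0.36 ± 0.08 relative to PBS. The comparisons of tumour groups with week 0 were added after the data were seen.

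Summed beta-globin averaged 116 ± 14.2 with OSCA-40, 93.6 ± 17.8 at week 0, 86.4 ± 11.5 with OSCA-32 and 68.8 ± 1.98 with PBS on the scaled measure. OSCA-40 overlapped with week 0, and week 0 with OSCA-32, and relative to week 0 the OSCA-40 libraries differed by 0.31 ± 0.17 (adjusted p = 0.372, limma). As deposited, the orders of both globins were different, with week 0 first. Both globins together made up 0.0832% ± 0.0079 of the mouse total with OSCA-40, 0.0436% ± 0.0020 with OSCA-32, 0.0338% ± 0.0016 with PBS and 0.0527% ± 0.0049 at week 0 (SD, n = 2 each).

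**Figure D4:**
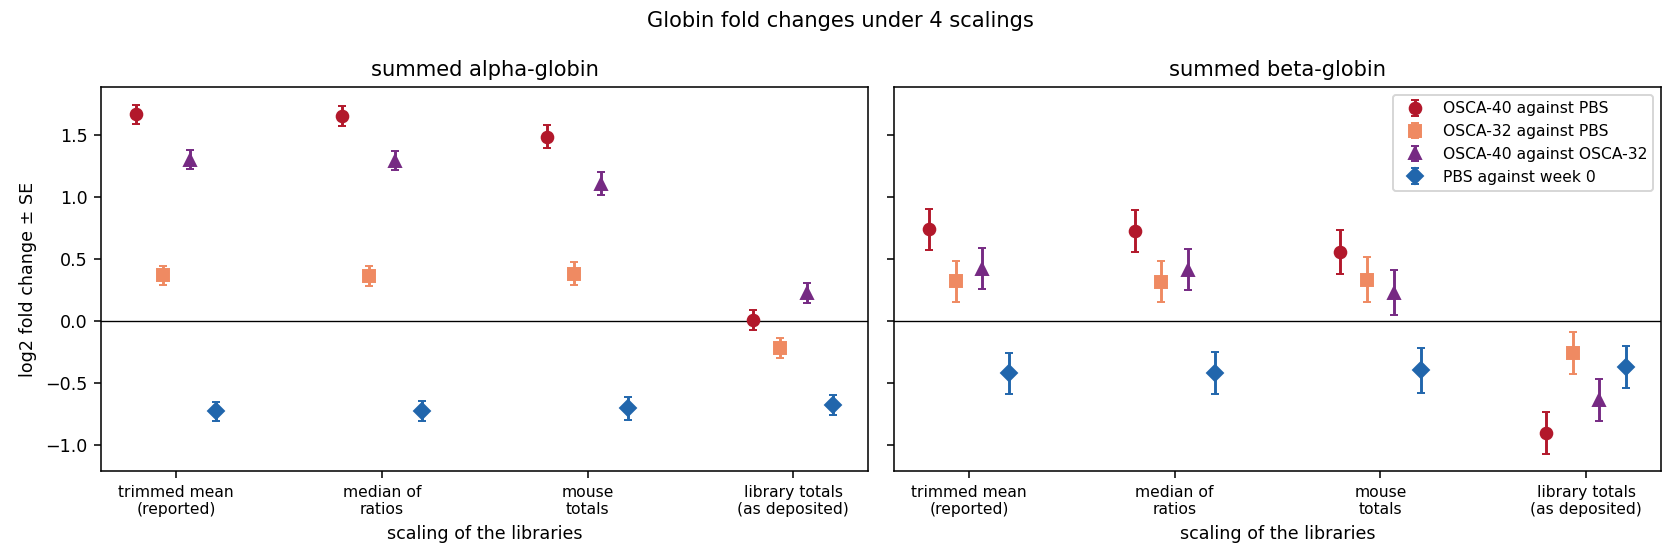
Log2 fold changes with standard errors (y axis) of summed alpha-globin and summed beta-globin under 4 scalings of the libraries (x axis), for 4 comparisons. The 3 scalings on mouse or bulk values lie close together, whereas with library totals alone alpha-globin in OSCA-40 against PBS is at 0.00 and beta-globin at -0.91, and PBS against week 0 stays near its reported value.

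The balance between the globins needs no scaling, since both values come from the same library. The ratio of summed alpha-globin to summed beta-globin was 5.72 and 5.27 with OSCA-40, 3.24 and 2.75 with OSCA-32, 2.73 and 3.07 with PBS and 3.99 and 3.20 at week 0. It averaged 5.50 ± 0.321 with OSCA-40, 2.99 ± 0.350 with OSCA-32, 2.90 ± 0.244 with PBS and 3.60 ± 0.554 at week 0 (SD, n = 2 each). Both OSCA-40 libraries were above all 6 others. OSCA-32 overlapped with PBS and with week 0, and PBS lay below week 0. With 2 libraries against 2, an exact permutation test cannot give a two-sided p below 0.333, so the ratio is given as a description.

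**Figure D5:**
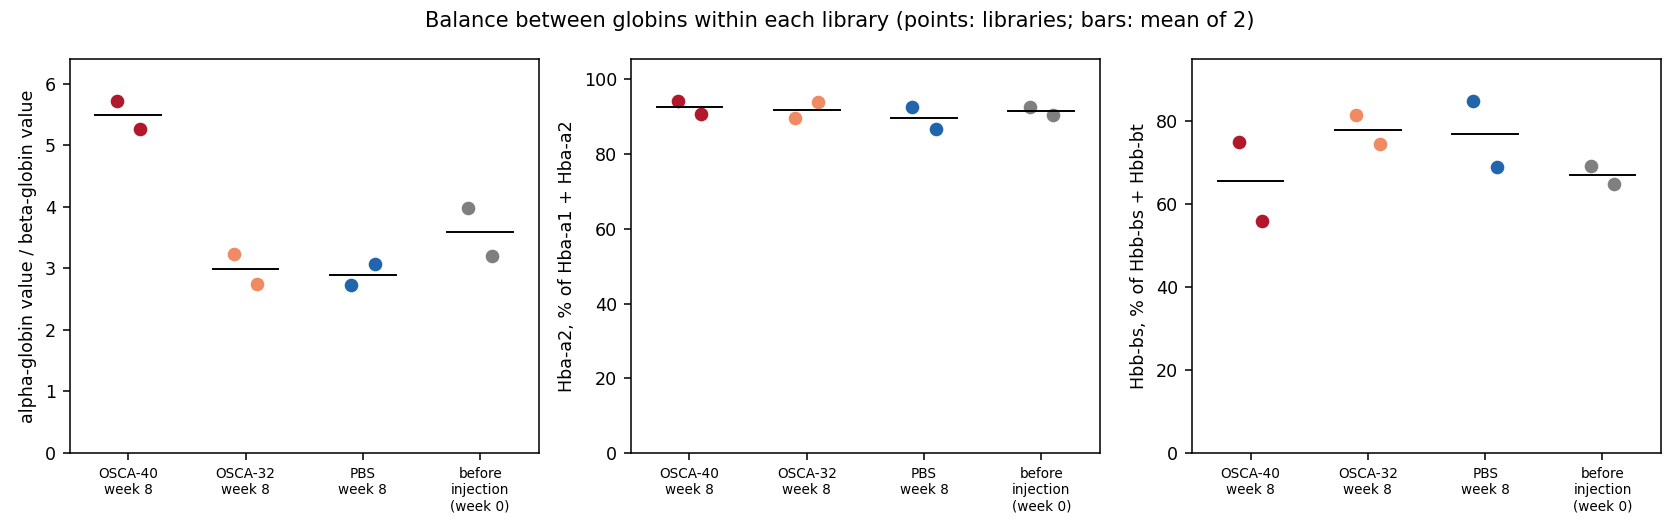
Ratio of summed alpha-globin to summed beta-globin (left), share of Hba-a2 in its pair (middle, %) and share of Hbb-bs in its pair (right, %) in each library, all axes from 0, with bars for the mean of 2. The ratio is 5.72 and 5.27 with OSCA-40 and at most 3.99 elsewhere, while the share of Hba-a2 stays between 86.7% and 94.2%.

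The membrane genes of the red cell stood far below Hba-a2, at levels like those of Hba-a1 and Hbb-bt. Slc4a1 (ENSMUSG00000006574, chromosome 11, 102348824 to 102366203) was listed at 6 and 11 with OSCA-40, at 21 and 15 with OSCA-32, at 20 and 37 with PBS and at 23 and 12 at week 0. The pairs of libraries differed widely, and after scaling the week 8 groups overlapped. Its log2 fold changes were -0.09 ± 0.45 for OSCA-40 and -0.04 ± 0.45 for OSCA-32 against PBS, with adjusted p of 0.943 and 0.989 in limma. The OSCA-40 value turned to 0.31 without the second PBS library and to 0.36 without the first OSCA-40 library. The OSCA-32 value turned to 0.38 without the second PBS library and to 0.21 without the second OSCA-32 library, and with library totals alone Slc4a1 was called lower in OSCA-40, at -1.64 ± 0.43 (adjusted p = 0.0097, limma).

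Ank1 (ENSMUSG00000031543, chromosome 8, 22974844 to 23150497) was listed at 9 and 14 with OSCA-40, at 10 and 6 with OSCA-32, at 17 and 18 with PBS and at 14 and 17 at week 0. Scaled, it averaged 34.6 ± 11.7 with OSCA-40 and 11.5 ± 4.26 with OSCA-32, against 16.7 ± 0.522 with PBS (SD, n = 2 each), so that the lines lay on opposite sides of PBS. None of these differences passed. The log2 fold change was 0.97 ± 0.32 for OSCA-40 against PBS (adjusted p = 0.147, limma), -0.55 ± 0.32 for OSCA-32 against PBS (adjusted p = 0.647, limma) and 1.52 ± 0.32 for OSCA-40 against OSCA-32 (adjusted p = 0.0677, limma). With library totals alone Ank1 was negative in both lines, at -0.61 ± 0.30 with OSCA-40 and -1.08 ± 0.30 with OSCA-32, and passed as lower in OSCA-32 (adjusted p = 0.0481, limma). The median tested mouse gene stood at 5 in both OSCA-40 libraries, at 10 and 11 with OSCA-32, at 15 and 16 with PBS and at 15 in both week 0 libraries, close to the level of Slc4a1 and Ank1.

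Alas2 (ENSMUSG00000025270, chromosome X, 150547375 to 150570638) was listed at 1 and 4 with OSCA-40, at 0 and 3 with OSCA-32, at 6 in both PBS libraries and at 5 in both week 0 libraries. Bpgm (ENSMUSG00000038871, chromosome 6, 34476207 to 34505613) had a value of 2 in each OSCA-40 library, 5 in each OSCA-32 library, 6 and 5 with PBS and 5 and 6 at week 0. The deposited values of both genes in the tumour groups were at or below those in the tumour-free groups, as were those of the median mouse gene. In a fit without the filter, over 34607 genes, neither gene passed in any of the 5 comparisons (lowest adjusted p = 0.329, limma). Scaled values of Alas2 were 7.59 ± 6.59 with OSCA-40, 2.12 ± 2.99 with OSCA-32 and 5.73 ± 0.0527 with PBS (SD, n = 2 each), with a spread in the tumour groups about as large as the mean.

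The wider red cell programme was followed in lists of known genes. Embryonic and minor globins were near 0: of 7 listed, 6 were in the table, none reached the filter, and the most abundant, the embryonic alpha-like Hba-x, was listed at 2 to 9. Of 20 membrane and skeleton genes, 8 were tested and none passed in any of the 5 comparisons. Their median log2 fold change was 0.25 in OSCA-40 against PBS, beside -0.02 over all genes tested, and 0.08 in OSCA-32 against PBS, beside 0.00. Epb42, a membrane protein bound to band 3, was listed at 7 and 7 with OSCA-40, 14 and 15 with OSCA-32, 20 and 17 with PBS and 18 and 20 at week 0. Tmod1, which caps the actin filaments of the skeleton, was listed at 5 to 18. After scaling, the log2 fold changes in OSCA-40 against PBS were 0.24 ± 0.18 for Epb42 and 0.67 ± 0.31 for Tmod1. Neither passed (adjusted p = 0.518 and 0.272, limma).

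Of 20 genes of haem synthesis and iron supply, 7 were tested and 1 rose, Fth1, the heavy chain of the iron store ferritin, which many tissues express. Fth1 was listed at 21 and 23 with OSCA-40, at 28 and 21 with OSCA-32, at 20 and 21 with PBS and at 19 and 15 at week 0. It rose by 1.70 ± 0.21 in OSCA-40 against PBS (adjusted p = 0.0037, limma) and by 1.25 ± 0.18 over both lines (adjusted p = 0.0107, limma). Of all genes tested, 4.43% and 3.37% were called higher in these comparisons. The deposited values of Fth1 in OSCA-40 and PBS were nearly equal, so this rise too appears only after scaling. The median of the 7 was -0.18 in OSCA-40 against PBS, beside -0.02 over all genes tested. Of 11 genes that encode erythroid transcription factors or the erythropoietin receptor, 3 were tested and none passed, and Gata1 was listed at 6 and 10 with OSCA-40, 11 and 17 with OSCA-32, 15 and 20 with PBS and 14 and 19 at week 0. Gfi1b, a repressor active in red cell and platelet precursors, was listed at 0 and 2 with OSCA-40 and at 5 to 17 elsewhere. After scaling, the log2 fold changes in OSCA-40 against PBS were 0.47 ± 0.34 for Gata1 and -1.82 ± 0.91 for Gfi1b (adjusted p = 0.492 and 0.313, limma). Of 18 red cell enzymes and maturation genes, 5 were tested and none passed, with a median of 0.11 in OSCA-40 against PBS, beside the same -0.02. Bnip3l, which removes mitochondria from maturing red cells, was listed at 4 to 27, with a scaled log2 fold change of 0.18 ± 0.58 in OSCA-40 against PBS. Of 7 genes of haemoglobin and haem clearance, 2 were tested, Blvra and Lrp1, and neither passed. Lrp1 had log2 fold changes of -0.59 ± 0.21 in OSCA-40 and -0.95 ± 0.21 in OSCA-32 against PBS (adjusted p = 0.169 and 0.123, limma). Those of Blvra were 0.83 ± 0.28 and 0.43 ± 0.28 (adjusted p = 0.155 and 0.692, limma).

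Some platelet and hepatocyte transcripts rose in OSCA-40 against PBS, as Hba-a2 did, where 4.43% of the 7872 genes tested were called higher. Of 12 platelet genes, all in the table, 4 were tested and 3 rose in OSCA-40 against PBS: Pf4 by 2.77 ± 0.26, Tmsb4x by 2.72 ± 0.14 and Ppbp by 1.62 ± 0.28 (log2, SE; adjusted p = 0.000978, 7.33e-05 and 0.0139, limma). Pf4, a chemokine of platelet granules, was also high as deposited, at 85 and 69 with OSCA-40 against 39 and 30 with PBS. Tmsb4x, an actin-binding peptide made by many cells, was listed at 95 and 88 with OSCA-40 against 43 and 42 with PBS, whereas Ppbp, another platelet chemokine, overlapped as deposited, at 9 and 8 with OSCA-40 against 7 and 9 with PBS. The summed deposited values of the 12 were 194 and 218 with OSCA-40, 160 and 188 with OSCA-32, 137 and 160 with PBS and 118 and 129 at week 0, taken as the lower and the higher library of each group. In OSCA-32 against PBS, 0.889% of the genes tested were called higher. There Tmsb4x alone of the platelet list rose, by 1.37 ± 0.14 (adjusted p = 0.0064, limma), and none of the hepatocyte list passed. Unlike alpha-globin, the platelet sum was lowest at week 0. Of 9 hepatocyte genes, 4 were tested and 3 rose in OSCA-40 against PBS after scaling, Fabp1, Alb and Trf. As deposited, Fabp1 was at 20 and 14 with OSCA-40 against 10 and 3 with PBS, Alb overlapped at 11 and 11 with OSCA-40 against 7 and 13 with PBS, and Trf was lower with OSCA-40, at 13 and 11 against 21 and 22 with PBS. The summed values of the 9 were 66 and 68 with OSCA-40, 70 and 81 with OSCA-32, 64 and 73 with PBS and 57 and 63 at week 0. None of the tested genes of neutrophils (3), monocytes and macrophages (1), B cells (2) or T and NK cells (4) passed in any comparison. Among their abundant members were Cxcr2 at 35 to 158 and Ltf at 5 to 40, Ly6c2 at 4 to 10, Ms4a1 at 9 to 30, and Cd3d at 32 to 97 and Cd4 at 4 to 15. None of the genes of these lists was at 0 in all 8 libraries, and no platelet gene was at 0 in both libraries of a group. Scaled, the platelet sum was 594 to 639 with OSCA-40 and 226 to 272 with OSCA-32, against 130 to 154 with PBS, and the hepatocyte sum was 193 to 208 with OSCA-40 and 98.7 to 117 with OSCA-32, against 61.5 to 69.3 with PBS. The part of platelet or liver RNA, or of the canine share, in the globin results was not tested.

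The genes whose scaled log2 profile over the 8 libraries was closest to that of summed alpha-globin were Ly6g6c, Kdm2a, Hmbox1, Pecam1 and Bud23, by the root mean square difference after centring, among 6317 named mouse genes. Their differences were 0.19 to 0.26, against a median of 0.71. Ly6g6c, of the Ly6 family of membrane-anchored proteins, was listed at 47 and 43 with OSCA-40, 42 and 50 with OSCA-32, 63 and 54 with PBS and 72 and 78 at week 0. The closest to summed beta-globin were Pigk, Kdm5a, Napsa, Optc and Maf, at 0.11 to 0.13 against a median of 0.45. The globin sums differed from each other by 0.39, and 89 of the 6317 genes were closer to summed alpha-globin than summed beta-globin was. In the other direction, 2296 genes were closer to summed beta-globin than summed alpha-globin was.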

How the data were processed

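Per the labels' protocols, ExoQuick served to enrich the serum vesicles, a SeraMir kit to extract their RNA, and a stranded SMARTer pico-input kit to build the libraries. The tools named in the submitters' processing notes are kallisto 0.43.0, Trimmomatic 0.33.0 and FastQC 0.11.5, with CanFam3.1 and GRCm38.p5 as builds. For the index and annotation release, the sources used here give nothing. The values deposited by the authors are whole numbers with nearly equal library totals, so they are treated as a score, a relative amount that keeps no depth, and not as read counts.

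Symbols came from GENCODE M21 for 31171 of 31300 mouse identifiers. Libraries were scaled on log ratios against the first week 0 library, averaged without weights, with the outer 30% of ratios and 5% of levels trimmed at either end. All 8 libraries entered 1 limma fit (3.58.1, R 4.3.3) on log2(scaled value + 1) with a mean per group, a variance trend and 4 residual degrees of freedom. This fit was also run on simulated data with independent normal scatter and no rounding to whole numbers. That run cannot show how coarse low values or related libraries affect the calls. A second fit had each globin pair replaced by its sum. Shared words were counted at a length of 31 bases on both strands, among mouse transcripts only. Named besides the 9 genes were called genes of the lists, otherwise the 2 most abundant of a list, and the 5 nearest profiles of each sum; 3 genes that this rule names are not reported here. The genes, lists and tests were chosen with earlier results of these data known. Alternatives were other scalings, filters and pseudocounts, mouse genes only, fewer groups, a replicate block, no variance trend, leaving out each library, and week 0 in place of PBS, the last chosen after seeing the data.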

Additional observations from a re-analysis of the deposited data

Results flagged for a closer look

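Alpha-globin differed between the OSCA-40 and OSCA-32 libraries, by a test of the difference itself. Hba-a2 was higher with OSCA-40 than with OSCA-32 by a log2 fold change of 1.31 ± 0.07 (adjusted p = 0.000585, limma), with scaled values of 568 and 600 with OSCA-40 and 227 and 244 with OSCA-32. Summed alpha-globin was higher by 1.30 ± 0.08 (adjusted p = 0.000584, limma). With library totals alone the differences were 0.23 for Hba-a2 and 0.22 for summed alpha-globin. Canine genes held 68.4% and 70.7% of the OSCA-40 libraries and 44.7% and 43.3% of the OSCA-32 libraries, and the part of this share in the difference was not tested. Scaled on the bulk of genes, both kept their call without each of the 8 libraries in turn.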

How the results depend on the processing

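Alpha-globin in OSCA-40 against PBS, over both lines against PBS and in OSCA-40 against OSCA-32 kept its call under median-of-ratios scaling, both pseudocounts (0.25 and 4), mouse totals, both filters and each omission of a library. Only library totals alone ended it, in the first 2 of these, and week 0 in place of PBS ended it over both lines. Where a change of call has no stated reason, the cause was not tested. Depth is unknown, so no counting error is given.

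With library totals alone, log2 fold changes in OSCA-32 against PBS became -0.55 for Hba-a1, -0.19 for Hba-a2, -0.24 for Hbb-bs and -0.25 for Hbb-bt. Summed alpha-globin became -0.22 and summed beta-globin -0.26, and of single genes Ank1 was called lower. In OSCA-40 against PBS, log2 fold changes became -0.42 for Hba-a1, -1.13 for Hbb-bs, -0.29 for Hbb-bt and -0.61 for Ank1. Summed alpha-globin became 0.0012 and summed beta-globin -0.91, and of single genes Hbb-bs and Slc4a1 were called lower. Over both lines, values became -0.48 for Hba-a1, -0.070 for Hba-a2, -0.68 for Hbb-bs, -0.27 for Hbb-bt and -0.85 for Ank1. Summed alpha-globin became -0.11 and summed beta-globin -0.58, and of single genes Hbb-bs, Slc4a1 and Ank1 were called lower. In OSCA-40 against OSCA-32, values became -0.89 for Hbb-bs, -0.037 for Hbb-bt and -0.64 for summed beta-globin. Of single genes Hbb-bs was called lower and Hba-a2 higher. In the same order of comparisons, the median tested mouse gene was at -0.56, -1.53, -1.05 and -0.96. The share of all genes called with library totals alone is not given here.

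Summed beta-globin in OSCA-40 against PBS lost its call with mouse totals (0.55), mouse genes only (0.74), no filter (0.50), no variance trend (0.73) and only the groups compared (0.73). Summed alpha-globin in PBS against week 0 lost it with mouse totals (-0.71), no filter (-0.77), no variance trend (-0.73) and only the groups compared (-0.73). Under the last 3 settings 0 genes of the set were called there in limma. Hba-a2 had an adjusted p of 0.0739 with no filter, 0.549 with no variance trend and 0.0808 with only the groups compared. Hbb-bs in OSCA-40 against OSCA-32 turned to -0.038 with mouse totals and -0.084 with no filter. With genes averaging 50 or more, summed alpha-globin in OSCA-32 against PBS passed (0.29), as did Hba-a2 (0.33).

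The replicate numbers are not said to pair libraries, and differences within groups correlated at -0.06 to 0.01 between groups. With the replicate block, Hba-a2 and Hbb-bt were called in OSCA-40 against PBS. Summed alpha-globin in PBS against week 0, at -0.73, lost its call (adjusted p = 0.0569, limma).

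With week 0 in place of PBS, chosen after seeing the data, OSCA-32 turned to -0.45 for Hba-a1, -0.36 for Hba-a2, -0.68 for Hbb-bt, 0.59 for Slc4a1, -0.37 for summed alpha-globin and -0.11 for summed beta-globin. OSCA-40 turned to 0.53 for Slc4a1 and lost its call for summed beta-globin (0.31). Both lines together turned to -0.19 for Hbb-bt and 0.56 for Slc4a1 and lost the call of summed alpha-globin (0.28), leaving 0 genes of the set called in limma, with Hba-a2 at an adjusted p of 0.0537.

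Leaving out each library in turn gave ranges that crossed 0 for Hba-a1 (-0.43 to 0.45), Hbb-bt (-0.16 to 0.76) and Slc4a1 (-0.46 to 0.38) in OSCA-32 against PBS. Slc4a1 also crossed 0 in OSCA-40 against PBS (-0.54 to 0.36), over both lines (-0.49 to 0.34) and in OSCA-40 against OSCA-32 (-0.51 to 0.40). Summed beta-globin in OSCA-40 against PBS ranged over 0.61 to 0.86, and summed alpha-globin in PBS against week 0 over -0.78 to -0.67, where 0 to 1 genes of the set were called.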

Other observations

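Cd3d, a subunit of the T cell receptor complex, was listed at 41 and 32 with OSCA-40, 64 and 75 with OSCA-32, 97 and 90 with PBS and 83 and 90 at week 0, although NCr nu/nu mice lack mature T cells. In the tumour-free libraries these values exceed those of Slc4a1 and Ank1. The other CD3 subunits listed were lower, with Cd3e at 0 to 4 and Cd3g at 1 to 10 over the 8 libraries. What these values of Cd3d stand for was not tested. Cd3d did not pass in any of the 5 comparisons in limma. Its scaled log2 fold change in OSCA-40 against PBS was 0.28 ± 0.13 (adjusted p = 0.283, limma).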
